A study of Mus musculus with 11 samples.

Results

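Mitochondrial ribosomal proteins are the proteins, encoded in the nucleus, of the ribosome that works inside mitochondria. Their genes were examined here in sorted mouse erythroid progenitors and dendritic cells. A gene belonged to the family if a probe set of the array carried exactly 1 gene symbol and that symbol was Mrpl or Mrps followed by a number. This gave 77 of 19933 named genes, 48 named for the large subunit (Mrpl) and 29 for the small subunit (Mrps). They were read by 85 probe sets, and where a gene had several (8 genes), the probe set with the highest mean log2 value stood for it. Mrpl53 shared its probe set with another gene and was not a member.

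The study measured RNA of C57Bl/6 mice at steady state on 11 single-colour arrays, with 1 array per group. WT mice were Zbtb46+/+, Het mice carried 1 gfp allele of Zbtb46 and KO mice carried 2 such alleles. Zbtb46 is a zinc finger transcription factor known from classical dendritic cells. From bone marrow of WT, Het and KO mice, 3 lineage-negative, CD117+ populations without CD41 and CD16/32 were sorted in the order of erythroid development. Pre MegE cells were CD150+ and CD105-, Pre CFU-E cells were CD150+ with low CD105, and CFU-E cells were CD150- and CD105+. CD4+ dendritic cells (DC) of the spleen came from WT and KO mice and were B220-, CD11c+, MHCII+, CD8-, CD172+, CD11b+ and CD4+. The labels do not say whether RNA of several mice was pooled, or whether the arrays of 1 genotype came from the same mice, so that p-values measure the spread between these arrays only.

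Mitochondria keep a small genome of their own, and its messenger RNAs encode core subunits of the respiratory chain and of ATP synthase. The mitochondrial ribosome makes these proteins. All of its proteins are made in the cytosol and imported, while its ribosomal RNAs are transcribed inside the organelle. Its proteins fall into those with a counterpart in bacterial ribosomes and those found only in mitochondrial ribosomes. Of the 77 genes, 30 encode large subunit proteins with a bacterial counterpart and 20 encode large subunit proteins particular to mitochondria. Mrps30 and Mrps18a are among these 20, since both proteins sit in the large subunit despite their names. A further 16 encode small subunit proteins with a bacterial counterpart and 10 encode small subunit proteins particular to mitochondria. The remaining gene, Mrps36, encodes a component of the 2-oxoglutarate dehydrogenase complex of the citric acid cycle. Erythroid cells are known for a high demand on mitochondria, where the last steps of haem synthesis take place.

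The promoters of the 77 genes were searched for short motifs. A RefSeq promoter window on GRCm38.p6, from 250 bases before to 50 bases after the start site, was at hand for 68 of the 77 genes. Of these windows, 31 overlapped another gene. Both strands were searched for 4 motifs. GCGCA and GCGC with any 1 base between them is the site of NRF1, a regulator of nuclear genes for mitochondrial proteins, and CCGGAAG is a core of sites for ETS factors such as GABP. AAGATGG is a core of the YY1 site, and CACGTG is the E-box that MYC and its partners bind. The CCGGAAG core was in 24 of the 68 windows (35.29%), against 12.51% of the 15610 windows of genes on the array and 9.12% of all 27025 windows. NRF1 matches were in 13 windows (19.12%), against 7.25% of the genes on the array and 4.78% of all windows. YY1 matches were also in 13 windows (19.12%), against 6.44% and 6.48%. E-boxes were in 5 windows (7.35%), close to the 8.39% of the genes on the array. At least 1 of the NRF1, ETS and YY1 motifs was in 41 windows (60.29%), against 23.36% of the genes on the array. Some of these shares were like those of other lists. The ETS core was in 34.78% of 46 windows of cytosolic ribosomal protein genes (NRF1 in 6.52%, YY1 in 8.7%), and among 31 windows of complex I genes NRF1 was in 19.35%, YY1 in 22.58% and the ETS core in 12.9%. Several of the 3 were in 9 windows of the family, and in 0 of the 68 windows did matches of different motifs overlap.

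The stretches below lie just before the start site that the table gives, are written 5′ to 3′ on the strand of the gene, and have motif matches in capitals. The 150 bases before Mrpl47 (chr3:32736756-32736905, minus strand) and Mrps22 (chr9:98601680-98601829, minus strand) are shown because these genes had the largest rises from Pre MegE to CFU-E. Mrps22 has an ETS match, and Mrpl47 has no match of the 4 motifs.
Mrpl47: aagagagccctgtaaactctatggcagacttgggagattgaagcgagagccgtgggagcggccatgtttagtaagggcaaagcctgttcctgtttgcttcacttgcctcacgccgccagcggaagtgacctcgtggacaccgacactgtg
Mrps22: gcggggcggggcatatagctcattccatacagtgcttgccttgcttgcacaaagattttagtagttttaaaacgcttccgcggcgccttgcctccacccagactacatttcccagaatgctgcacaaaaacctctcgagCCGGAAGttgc

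Mrpl45 (chr11:97315566-97315715, plus strand), Mrpl12 (chr11:120484487-120484636, plus strand) and Mrpl52 (chr14:54426759-54426908, plus strand) show the motifs themselves. Mrpl45 has 2 NRF1 matches in the stretch, Mrpl12 has 1 read from the other strand, and Mrpl52 has a YY1 match followed by an ETS match, also from the other strand.
Mrpl45: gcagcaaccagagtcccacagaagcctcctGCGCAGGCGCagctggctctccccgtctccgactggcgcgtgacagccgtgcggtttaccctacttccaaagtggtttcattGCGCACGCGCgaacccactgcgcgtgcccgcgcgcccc
Mrpl12: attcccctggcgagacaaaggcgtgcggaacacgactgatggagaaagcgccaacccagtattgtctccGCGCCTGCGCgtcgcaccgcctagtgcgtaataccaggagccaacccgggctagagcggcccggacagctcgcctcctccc
Mrpl52: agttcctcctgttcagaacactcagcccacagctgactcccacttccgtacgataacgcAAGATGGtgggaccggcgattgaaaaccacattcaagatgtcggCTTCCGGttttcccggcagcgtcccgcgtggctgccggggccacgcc

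Mrpl24 (chr3:87919394-87919543, plus strand) was the gene with the smallest rise, and the stretch holds none of the 4 motifs, like that of Mrpl47. Mrpl46 and Mrps11, 1 gene of each subunit, point away from each other and share the 41 bases between their start sites (chr7:78783090-78783130), shown here on the strand of Mrps11 and with none of the motifs.
Mrpl24: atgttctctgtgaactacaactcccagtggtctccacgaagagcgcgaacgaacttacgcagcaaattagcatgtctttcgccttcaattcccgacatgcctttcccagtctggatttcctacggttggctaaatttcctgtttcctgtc
Mrpl46 and Mrps11: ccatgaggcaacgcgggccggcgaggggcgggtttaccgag

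The rise itself was of like size with and without these matches, apart from the few E-boxes. The median log2 rise from Pre MegE to CFU-E was 0.75 in the 24 genes with an ETS match and 0.76 in the 44 without. It was 0.75 in the 13 genes with an NRF1 match and 0.76 in the other 55, and 0.75 and 0.76 likewise for YY1. The 5 genes with an E-box had a median of 1.06, against 0.75 in the other 63. These are descriptions of letters in a window, with no test.

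The deposited intensities were placed on a log2 scale, on which a difference of 1 is a doubling. Array medians lay between 195.66 and 218.37 on the linear scale, and upper quartiles between 967.58 and 1009.3 in progenitors but at 641.43 in WT and 604.76 in KO DC. Zbtb46 stood at 9.67 in WT DC and 8.02 in KO DC, and in CFU-E at 8.87 in WT, 8.62 in Het and 7.50 in KO. All 10 DC markers were above the array median on both DC arrays, and all 8 erythroid markers on all 9 progenitor arrays, with medians of 10.69 to 10.78 in Pre MegE and 12.21 to 12.23 in CFU-E. On the progenitor arrays 3 to 6 of the 10 DC markers were also above it, and on each DC array 4 of the 8 erythroid markers. The DC markers had medians of 12.22 in WT and 12.16 in KO DC against 7.41 to 8.07 in progenitors. Those of the erythroid markers in DC were 7.42 in WT and 7.53 in KO. The median of 4 megakaryocyte genes was 10.03 to 10.27 in Pre MegE and 8.15 to 8.22 in CFU-E. That of 6 granulocyte genes, all above the array median on the 9 progenitor arrays, was 11.99 to 12.25 in Pre MegE and 10.86 to 11.23 in CFU-E. The part of these other lineages in the results on the mitochondrial ribosome was not tested.

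The family was expressed on every array. On the progenitor arrays all 77 genes were above the array median, on the WT DC array all but 4 (Mrpl22, Mrpl47, Mrps17 and Mrps12) and on the KO DC array all but 7 (Mrpl22, Mrpl47, Mrps17, Mrpl42, Mrpl44, Mrps30 and Mrps36), for which a fold against DC is best read as a lower limit. Over the 77 genes the median log2 intensity was 9.87 in WT, 9.86 in Het and 9.92 in KO Pre MegE. It was 10.60, 10.57 and 10.70 in Pre CFU-E and 10.73, 10.72 and 10.63 in CFU-E. In DC it was 8.85 in WT and 8.64 in KO. The 3 stages of progenitors therefore did not overlap with DC in this median, and Pre MegE lay below both later stages in every genotype, while Pre CFU-E and CFU-E overlapped. The median of all genes tested moved little, between 9.56 and 9.61 on the progenitor arrays, and was 8.998 in WT and 8.904 in KO DC. In bulk RNA, fewer expressing cells and less RNA per cell cannot be told apart, and intensities are relative to all RNA on an array.

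**Figure D1:**
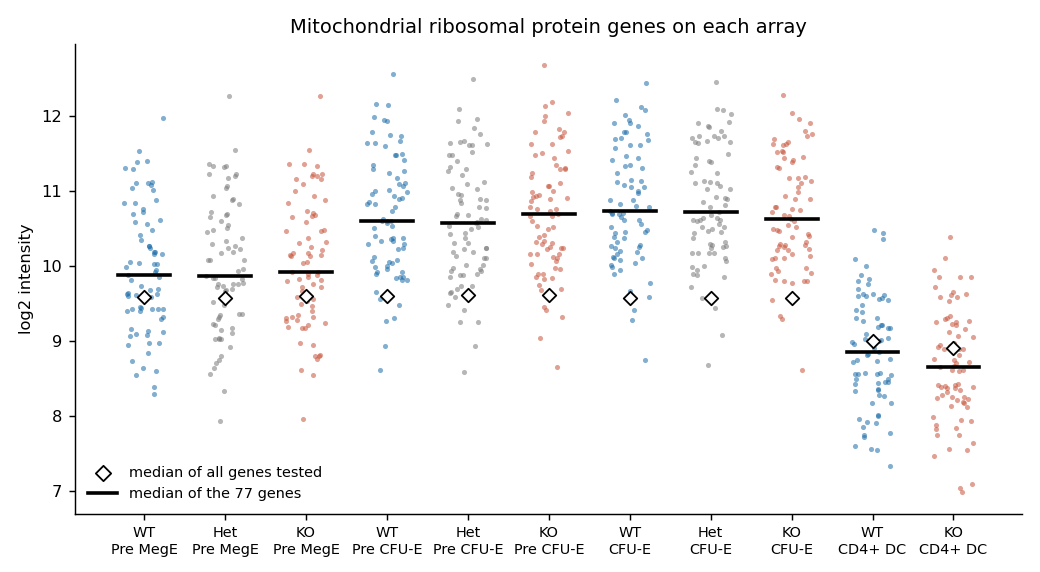
Log2 intensity of the 77 mitochondrial ribosomal protein genes (points) on each of the 11 arrays, by cell type and genotype (blue WT, grey Het, red KO); black lines are the medians of the 77 genes and white diamonds the medians of all genes tested. The median of the family rises from 9.87 in WT Pre MegE to 10.60 in WT Pre CFU-E and lies at 8.85 in WT DC, below the diamond.

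The first question was how the mitochondrial ribosome changes as progenitors become erythroid. From Pre MegE to Pre CFU-E, 75 of the 77 genes rose and 0 fell, with all 77 differences above 0. The test was limma across 10701 genes with genotype as a block, and a change was called at an adjusted p under 0.05, over all genes. In this comparison 37.1% of all genes tested were called higher and 29.3% lower. The median log2 difference of the 77 genes was 0.69, against 0.04 for all genes tested, and their range was 0.02 to 1.49. For 75 of the 77 genes all 3 Pre CFU-E arrays were above all 3 Pre MegE arrays, as for 40.1% of all genes tested. With arrays centred on their medians, the split of all genes tested went from 3965 higher and 3134 lower to 5045 and 2522, while the count in the family was again 75 and 0 and its median 0.77.

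Both subunits and all classes took part, in a step where 37.1% of all genes tested were called higher. The calls covered 28 of the 30 large subunit genes with a bacterial counterpart (median 0.66), all 20 large subunit genes particular to mitochondria (0.66), all 16 small subunit genes with a bacterial counterpart (0.58) and all 10 small subunit genes particular to mitochondria (0.75). By symbol, the median was 0.66 for the 48 Mrpl genes and 0.71 for the 29 Mrps genes.

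Among large subunit genes, Mrpl47, whose protein lies near the exit of the peptide tunnel, had the largest difference. Its log2 intensity was 8.28 in WT, 8.33 in Het and 8.54 in KO Pre MegE, 9.91, 9.69 and 10.03 in Pre CFU-E, and 10.28, 10.29 and 9.82 in CFU-E. The Pre MegE arrays lay more than a log2 unit below all others. The first step was 1.49 (SE 0.14, 2.81-fold, adjusted p = 1.31e-05 by limma). A second probe set of Mrpl47, with a lower mean, gave 0.18 for this step, so the size of the change depends on the probe set. Mrpl18, whose bacterial counterpart binds the smallest ribosomal RNA, was at 9.64, 9.83 and 9.88 in WT, Het and KO Pre MegE, at 11.06, 10.87 and 10.99 in Pre CFU-E and at 11.24, 11.25 and 11.18 in CFU-E. It rose by 1.19 (SE 0.075, adjusted p = 1.15e-06 by limma) in the first step, and no Pre MegE array reached a later one.

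Among small subunit genes, Mrps22 rose most. Mutations of its human counterpart are a cause of inherited respiratory chain deficiency. It was at 9.81, 10.07 and 10.13 in WT, Het and KO Pre MegE, at 11.17, 11.12 and 11.29 in Pre CFU-E and at 11.58, 11.65 and 11.39 in CFU-E. The first step was 1.19 (SE 0.093, 2.28-fold, adjusted p = 4.35e-06 by limma), and the 3 stages overlapped in no array. The others of the 8 largest rises were Mrpl50 (0.99), Mrps36 (0.98), Mrpl51 (0.98), Mrpl20 (0.97) and Mrps18c (0.95). Mrps36, the member that is not a ribosomal subunit, was thus among them, at 8.60, 8.63 and 8.79 in Pre MegE and 9.81, 9.47 and 9.67 in Pre CFU-E.

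2 large subunit genes with bacterial counterparts did not pass the test. Mrpl24 was at 10.84, 10.87 and 10.99 in WT, Het and KO Pre MegE, at 10.94, 10.89 and 10.94 in Pre CFU-E and at 10.996, 11.023 and 10.892 in CFU-E. Its first step was 0.02 (SE 0.06, adjusted p = 0.774 by limma), and the stages overlapped. Mrpl33 was at 8.54, 8.55 and 8.61 in Pre MegE, at 8.61, 8.58 and 8.64 in Pre CFU-E and at 8.74, 8.68 and 8.61 in CFU-E, a first step of 0.04 (SE 0.052, adjusted p = 0.475 by limma). Over the whole span Mrpl24 differed by 0.07 (adjusted p = 0.312) and Mrpl33 by 0.11 (adjusted p = 0.0855). Without the KO CFU-E array these span values were 0.14 (adjusted p = 0.0481) and 0.16 (adjusted p = 0.0174), past the threshold for both genes, as also with centred arrays. After quantile normalization Mrpl24 was at -0.02.

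Between Pre CFU-E and CFU-E the family moved less. Of the 77 genes, 25 rose, 1 fell and 51 were not called, where 18.7% of all genes tested were called higher and 25.3% lower. The median difference was 0.13, with a range from -0.46 to 0.48, against -0.0046 for all genes tested. For 29 of the 77 genes all CFU-E arrays were above all Pre CFU-E arrays, as for 24.9% of all genes tested. The count rested on single arrays. Without the KO CFU-E array 42 genes rose, and without the WT Pre CFU-E, WT CFU-E, Het Pre CFU-E or Het CFU-E array 12, 12, 13 and 10 rose. With arrays centred on their medians 31 rose and 1 fell, and the split of all genes tested went from 2004 higher and 2708 lower to 2499 and 2309.

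The 25 rises were 10 of the 30 large subunit genes with a bacterial counterpart, 3 of the 20 particular to mitochondria, 8 of the 16 small subunit genes with a bacterial counterpart, 3 of the 10 particular to mitochondria, and Mrps36. Of all genes tested 18.7% were called higher in this step. The split by class was not tested, and it was not counted again without single arrays. Mrps36 had the largest value, 0.48 (SE 0.095, adjusted p = 0.00308 by limma), with CFU-E arrays at 10.24 in WT, 10.17 in Het and 9.97 in KO. All 3 were above its Pre CFU-E arrays. Next were Mrps18c (0.42), Mrpl28 (0.40), Mrpl9 (0.37), Mrpl27 (0.37), Mrps22 (0.35), Mrpl55 (0.32) and Mrpl11 (0.28). Mrpl9, which reaches out from the body of bacterial large subunits, was at 10.29, 10.30 and 10.32 in WT, Het and KO Pre CFU-E and at 10.69, 10.68 and 10.66 in CFU-E, with arrays of a stage closer together than the step. Mrpl11, a protein at the base of the stalk where translation factors bind, had adjusted p between 0.000695 and 0.196 over the alternatives. The call of Mrps22 was lost without the WT CFU-E, Het Pre CFU-E or Het CFU-E array (adjusted p = 0.0789, 0.0608 and 0.082 by limma). That of Mrpl55 was lost without the WT Pre CFU-E, Het Pre CFU-E or Het CFU-E array (adjusted p = 0.0783, 0.0639 and 0.089 by limma).

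Mrpl50, a large subunit protein particular to mitochondria, was the member that fell. It was at 10.02, 9.82 and 9.90 in WT, Het and KO Pre MegE, at 10.90, 10.88 and 10.92 in Pre CFU-E and at 10.45, 10.45 and 10.42 in CFU-E. At each stage the genotypes lay closer together than the steps between stages, and no stage overlapped another. The rise of 0.99 (SE 0.054, adjusted p = 4.88e-07) was followed by a fall of 0.46 on the log2 scale (SE 0.054, adjusted p = 0.000127 by limma), which left CFU-E above Pre MegE by 0.53. The members with a second step closest to 0 were Mrpl58, a peptide release factor built into the large subunit, and Mrps10, whose CFU-E and Pre CFU-E arrays overlapped (adjusted p = 0.99 and 0.975 by limma).

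**Figure D2:**
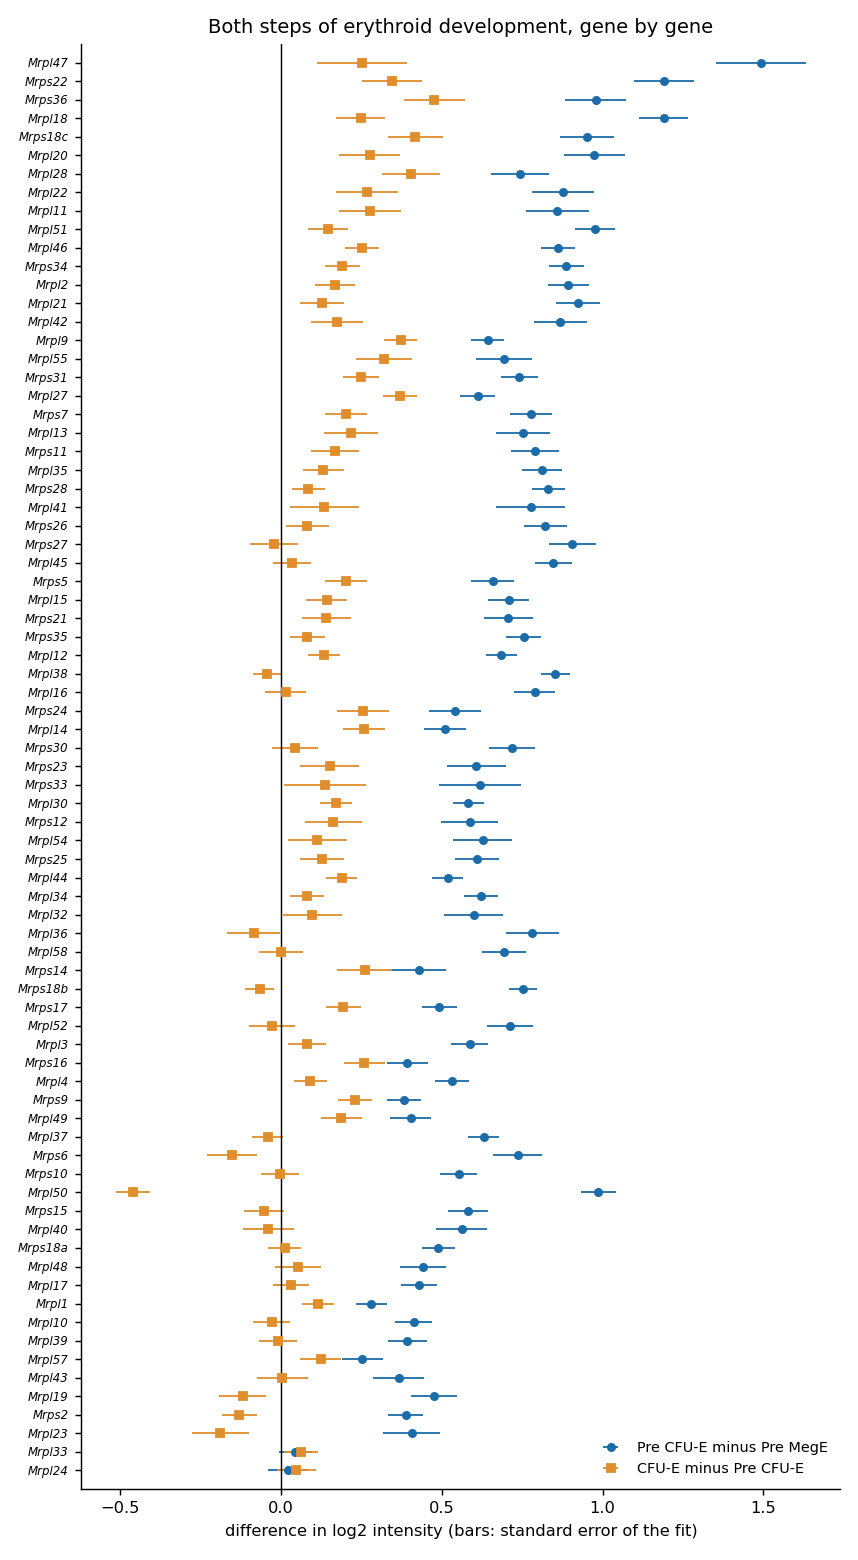
Difference in log2 intensity from Pre MegE to Pre CFU-E (blue circles) and from Pre CFU-E to CFU-E (orange squares) for each of the 77 genes, ordered by the sum of both; bars are the standard error of the fit. Blue circles lie right of orange squares for 75 of the 77 genes, and Mrpl50 has the orange square farthest left, at -0.46.

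Over both steps together, 75 of the 77 genes were called higher and 0 lower between Pre MegE and CFU-E, with all 77 differences above 0, against 41.5% and 35.1% of all genes tested. The median difference was 0.76 (range 0.07 to 1.74), against 0.05 for all genes tested. In 75 of the 77 genes all CFU-E arrays were above all Pre MegE arrays, as in 43% of all genes tested. After Mrpl47 (1.74, SE 0.14, 3.35-fold, adjusted p = 2.39e-06 by limma) came Mrps22 (1.54), Mrps36 (1.45), Mrpl18 (1.44), Mrps18c (1.37), Mrpl20 (1.25), Mrpl28 (1.15) and Mrpl22 (1.14). By class the median was 0.81 and 0.69 for large subunit genes with and without a bacterial counterpart and 0.72 and 0.86 for those of the small subunit. The second probe set of Mrpl47 gave 0.42 for the span, and that of Mrpl41 gave 0.50 against 0.91 for the one used. Mrpl51 had 0.83 and 1.12, and the other 5 genes with several probe sets differed by less between theirs. Centring the arrays called all 77 genes higher, with a median of 0.88, and turned the split of all genes tested from 4443 higher and 3759 lower to 5696 and 3085.

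Whether the steps differed in size was tested directly as the first minus the second step. The first was larger for 61 of the 77 genes and smaller for 0, against 24.1% and 14.6% of all genes tested, and 2 differences were below 0. An unadjusted p under 0.05 was reached by 65 of the 77 genes and by 5127 of the 10701 genes tested. The median of this difference was 0.55, against 0.06 for all genes tested. Mrpl50 led with 1.45, followed by Mrpl47 (1.24), Mrpl18 (0.94), Mrps27 (0.93), Mrpl38 (0.90), Mrps6 (0.89), Mrpl36 (0.87) and Mrps22 (0.85). The value of Mrpl47 depends on the probe set, since its second probe set had a first step of 0.18 and a second step of 0.24. Mrps27, an RNA-binding small subunit protein of the pentatricopeptide repeat family, was at 9.42, 9.28 and 9.49 in WT, Het and KO Pre MegE, at 10.32, 10.18 and 10.41 in Pre CFU-E and at 10.37, 10.32 and 10.16 in CFU-E. Its later stages overlapped and Pre MegE stood apart. Without the KO Pre CFU-E array the count was 39 in place of 61.

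The 3 Mrps18 genes, related to 1 bacterial gene, are set side by side. Mrps18c, the copy whose protein takes the bacterial place in the small subunit, was at 9.45, 9.72 and 9.72 in WT, Het and KO Pre MegE, at 10.59, 10.49 and 10.67 in Pre CFU-E and at 11.05, 11.06 and 10.89 in CFU-E, rising in both steps. Mrps18b, also of the small subunit, was at 11.40, 11.35 and 11.36, then at 12.14, 12.10 and 12.14, then at 12.12, 12.03 and 12.03. It rose by 0.75 (SE 0.044, adjusted p = 7.62e-07 by limma) in the first step and differed by -0.07 (adjusted p = 0.26) in the second. Mrps18a, in the large subunit, was at 10.58, 10.55 and 10.67, then at 11.11, 11.10 and 11.06, then at 11.07, 11.13 and 11.10. It rose by 0.49 (adjusted p = 2.53e-05) and then differed by 0.01 (adjusted p = 0.876). Over the span the values were 1.37 for Mrps18c, 0.69 for Mrps18b and 0.50 for Mrps18a, with standard errors of 0.085, 0.044 and 0.051. The differences between the copies were not tested.

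**Figure D3:**
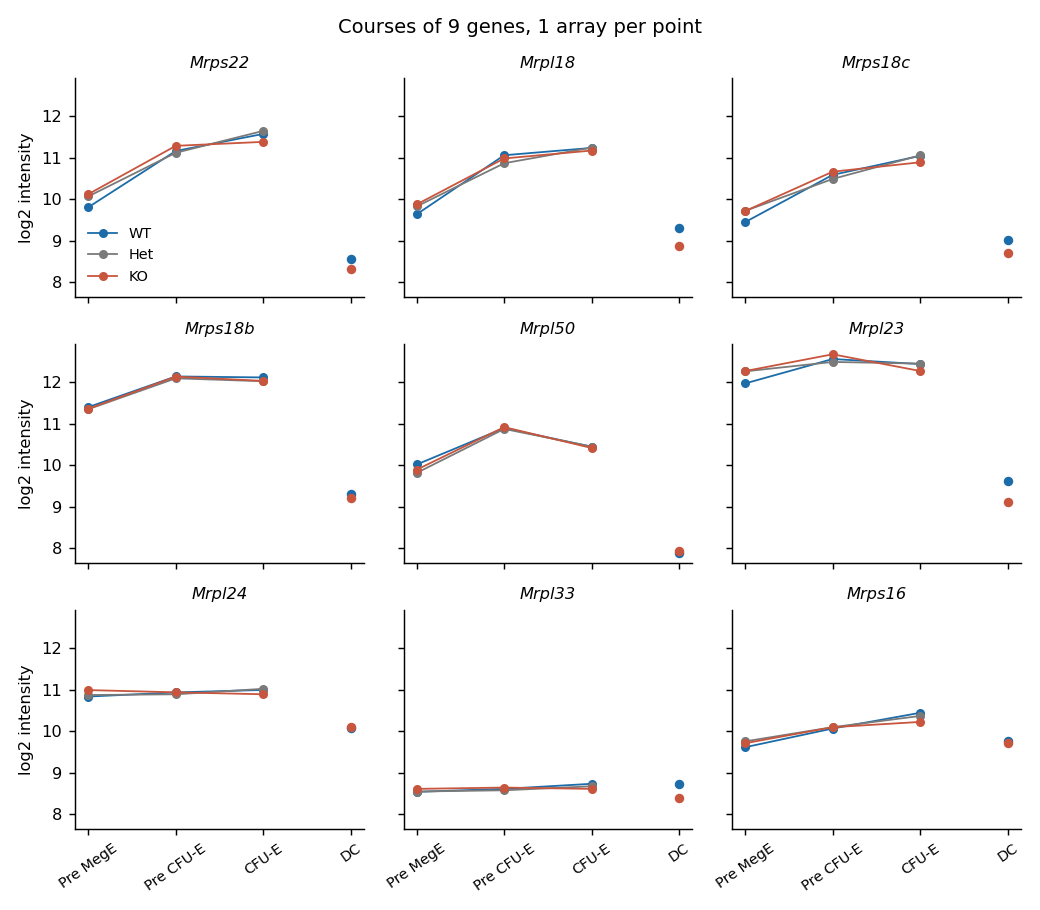
Log2 intensity of 9 member genes in WT (blue), Het (grey) and KO (red), 1 array per point, along the 3 progenitor stages, with DC as separate points at the right. Mrps22, Mrpl18 and Mrps18c climb from Pre MegE on, Mrpl50 peaks in Pre CFU-E at 10.88 to 10.92, Mrpl24 and Mrpl33 differ by 0.07 and 0.11 over the span, and in DC Mrpl23 is at 9.62 in WT and 9.11 in KO.

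The other genes of the pathway were read from lists of their known parts. Over the span from Pre MegE to CFU-E, 41.5% of all genes tested were called higher and 35.1% lower. All 4 measured ribosomal proteins with other names rose over the span, namely Chchd1 (1.10), Ptcd3 (0.89) and Dap3 (0.63) of the small subunit and Gadd45gip1 (0.90) of the large. Of 25 assembly factors 22 rose and 2 fell (Nsun4 by 0.50 and Mrm1 by 0.25), with a median of 0.49. They were led by Fastkd2 (1.52), Ddx28 (1.30) and Mrm3 (1.04), which act in the maturation of the large subunit or its RNA. Of 15 factors of mitochondrial translation 11 rose and 0 fell (median 0.45), with Slirp (1.49), which holds mitochondrial messenger RNAs together with Lrpprc, and the elongation factors Gfm1 (1.29) and Tsfm (1.24) at the top. Of 19 mitochondrial tRNA synthetases and their partners 16 rose and 1 fell (median 0.34), with Yars2 at 1.04 and Rars2 at 0.80, while Ears2 fell by 0.45. Of 9 genes of mitochondrial DNA copying and transcription 8 rose and 1 fell. Ssbp1 (1.09) and Tfam (0.91), the packaging protein of mitochondrial DNA, rose most, and Polg2, the accessory subunit of its polymerase, fell by 0.31.

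Complex I, the respiratory complex with the most mitochondrially made subunits, is otherwise encoded in the nucleus, and 32 of 34 such subunit genes rose with 0 falls and a median of 0.69. Of all genes tested 41.5% were called higher and 35.1% lower over this span. Examples are Ndufs6 (1.22), Ndufs1 (1.18) and Ndufa5 (1.16). The proteins of the cytosolic ribosome were read the same way. Of 54 tested, 14 rose and 2 fell over the span (Rpl21 by 0.18 and Rpl38 by 0.12), both smaller shares than over all genes tested. Their median of 0.04 lies beside the 0.05 of all genes tested. Those with the largest rises were Rps27l (0.80), Rpl14 (0.61) and Rpl12 (0.45). Their median log2 intensity was 13.0 to 13.2 on the progenitor arrays, where the highest value of an array was 14.5 to 14.6, and the part of this ceiling in the small differences was not tested. Of 11 regulators of mitochondrial genes 5 rose and 3 fell, shares near the 41.5% and 35.1% of all genes tested. Nrf1 (0.31), Gabpa (0.39) and Pprc1 (0.47) rose, Mycn fell by 3.04, Gabpb1, the partner of Gabpa, by 0.54 and Myc by 0.30, and Yy1 (-0.06, adjusted p = 0.441 by limma) was not called.

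**Figure D4:**
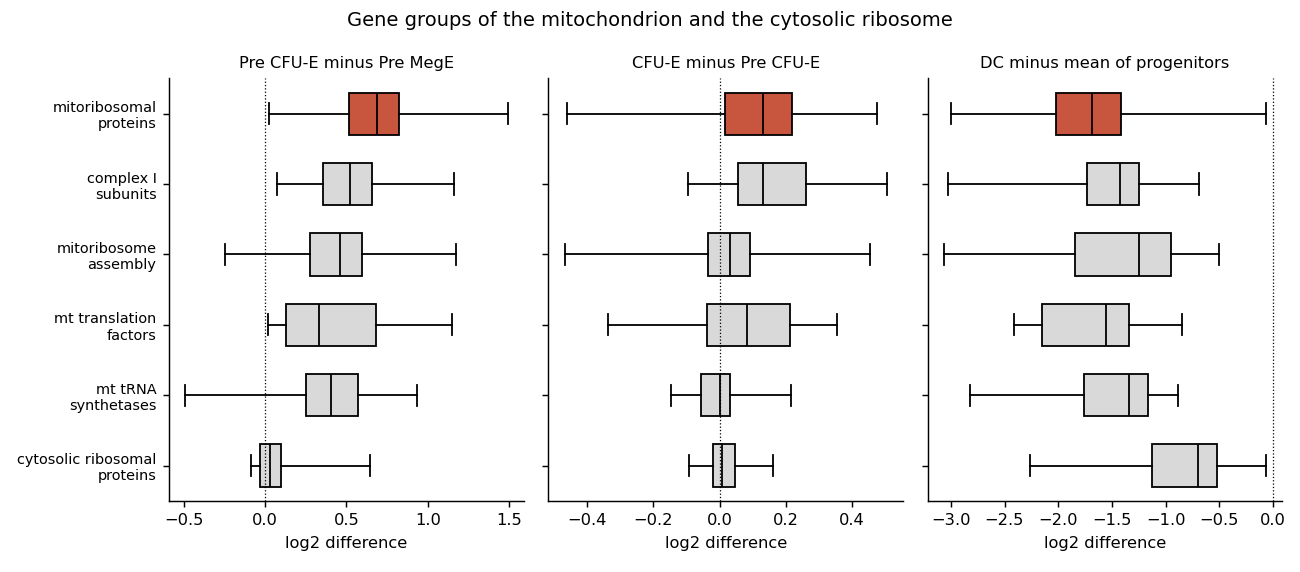
Log2 differences of the 77 mitochondrial ribosomal protein genes (red) and of 5 other gene groups (grey) in 3 comparisons; boxes span the quartiles with the median as a line, and whiskers reach the lowest and highest gene. In the first step the family has a median of 0.69 and complex I one of 0.52, while cytosolic ribosomal proteins have 0.03; in DC the medians are -1.68, -1.43 and -0.70.

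Dendritic cells held the lowest levels. Compared with the mean of the 3 progenitor stages, 76 of the 77 genes were lower in DC and 0 higher, with all 77 differences below 0. This is set against 64.6% of the 11560 genes tested called lower and 25.3% called higher, with a median of -0.59 over these genes. With no filter, over 19933 genes, the median was -0.07, with 8855 called lower and 6681 higher. The family's median was -1.68 (range -3.00 to -0.06). For 75 of the 77 genes both DC arrays were below all 9 progenitor arrays, as for 57.8% of all genes tested. Quantile normalization, which gives all arrays 1 distribution, moved the split of all genes tested from 2928 higher and 7463 lower to 4671 and 5512 and their median to -0.10. The family then had 72 genes lower and 2 higher, with a median of -1.23. By class the median was -1.75 and -1.81 for large subunit genes with and without a bacterial counterpart, and -1.46 and -1.76 for those of the small subunit.

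The 8 members lowest in DC were Mrpl23, Mrpl15, Mrpl42, Mrpl20, Mrps18b, Mrpl34, Mrpl11 and Mrpl49, from -3.00 to -2.53. Mrpl23, a protein at the rim of the peptide exit, was at 9.62 in WT and 9.11 in KO DC. On the progenitor arrays it was at 11.97, 12.26 and 12.27 in WT, Het and KO Pre MegE, at 12.56, 12.49 and 12.68 in Pre CFU-E and at 12.44, 12.45 and 12.27 in CFU-E. The gap to the nearest progenitor array exceeded the spread among the progenitors. The difference was -3.00 (SE 0.128, adjusted p = 1.71e-09 by limma), or 7.99-fold lower without further scaling. Over the alternatives it lay between -3.29 and -2.34. Both probe sets of Mrpl23 gave this size, at -3.01 and -3.07 without the genotype block. In the same reading Mrps5 (-2.47 and -2.37) and Mrps33 (-1.96 and -1.93) were also alike. The probe sets of other genes differed more, namely Mrpl47 (-2.31 and -0.41), Mrpl41 (-1.14 and -0.38), Mrpl51 (-2.16 and -1.48), Mrpl27 (-1.89 and -1.40) and Mrps36 (-1.87 and -2.37). Mrps18b was at 9.30 and 9.21 in WT and KO DC, a difference of -2.61 (SE 0.049, adjusted p = 5.48e-12 by limma), next to -1.53 for Mrps18c and -1.32 for Mrps18a. Over the alternatives these lay between -2.63 and -1.95 for Mrps18b, -1.73 and -0.91 for Mrps18c, and -1.35 and -0.63 for Mrps18a.

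At the other end stood 6 members with smaller gaps, Mrpl33 (-0.06), Mrps16 (-0.29), Mrpl14 (-0.82), Mrpl24 (-0.83), Mrps6 (-0.84) and Mrpl55 (-0.92). Mrpl33 was at 8.73 in WT DC, inside its progenitor range of 8.54 to 8.74, and at 8.39 in KO DC, below it, and it did not pass the test (adjusted p = 0.442 by limma). Mrps16, a small subunit protein with a bacterial counterpart, was at 9.76 in WT and 9.72 in KO DC. Its progenitor arrays were at 9.62, 9.76 and 9.71 in WT, Het and KO Pre MegE, 10.07, 10.10 and 10.10 in Pre CFU-E and 10.45, 10.37 and 10.23 in CFU-E. Both DC arrays lay among the Pre MegE arrays for this gene and below the later stages. After quantile normalization both signs turned, to 0.42 for Mrpl33 (adjusted p = 0.000567) and 0.41 for Mrps16 (adjusted p = 0.000132). Mrpl14 (-0.14, adjusted p = 0.0709), Mrpl24 (-0.13, adjusted p = 0.0636) and Mrps6 (-0.14, adjusted p = 0.312) were then no longer called.

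Against Pre MegE alone, the least advanced of the 3 stages, 75 of the 77 genes were lower in DC and 0 higher, where 65.7% of all genes tested were lower and 22.5% higher. The median was -1.22, with a range from -2.79 to 0.06. The exceptions were again Mrpl33 (-0.01, adjusted p = 0.895 by limma) and Mrps16 (0.06, adjusted p = 0.477 by limma). After quantile normalization 63 genes were lower and 4 higher (Mrps16, Mrpl33, Mrpl55 and Mrpl14), where 46.8% of all genes tested were lower. Mrpl14 went from -0.40 (adjusted p = 0.000836 by limma) to 0.26 (adjusted p = 0.00998), and Mrpl55 from -0.35 (adjusted p = 0.00731) to 0.27 (adjusted p = 0.0273). The direction of these genes against Pre MegE therefore depended on the scaling. In DC, the lists around the mitochondrial ribosome were lower too, with 25 of 25 assembly factors, 15 of 15 translation factors, 19 of 19 tRNA synthetases and partners and 34 of 34 complex I subunits called lower than the progenitor mean. In this comparison 64.6% of all genes tested were called lower and 25.3% higher. The list counts were taken without further scaling and not after quantile normalization. Polg2 was higher by 1.66. Cytosolic ribosomal proteins were called lower in 53 of 54 genes (Rps29 was at -0.06), a larger share than the 64.6% of all genes tested. Only their median of -0.70 lay near the -0.59 of all genes tested. All 5 macrophage genes of the marker list were above the array median in DC, with medians of 10.67 in WT and 10.05 in KO. Their part in the DC values was not tested.

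The 3 genotypes ask what loss of Zbtb46 changes. In the progenitors 0 of the 77 genes were called between KO and WT (limma, adjusted over all 10701 genes). Of all genes tested 0.0187% were called higher and 0.121% lower. An unadjusted p under 0.05 was reached by 2 of the 77 genes and by 614 of all genes tested. Between Het and WT 0 of the 77 genes were called, where 0.00934% of all genes tested were called higher and 0.028% lower. Here 4 of the 77 genes and 566 of all genes tested had an unadjusted p under 0.05. Mrpl42, a large subunit protein particular to mitochondria, had the largest difference of KO from WT that kept its sign in all 3 stages. It was at 9.59, 9.35 and 9.27 in WT, Het and KO Pre MegE, at 10.40, 10.11 and 10.30 in Pre CFU-E and at 10.61, 10.51 and 10.21 in CFU-E. WT was highest at each stage, with a mean difference of KO from WT of -0.27 (SE 0.081, adjusted p = 0.553 by limma). Mrps21 followed with -0.19 (adjusted p = 0.834 by limma). The 6 granulocyte genes had a median difference from WT of -0.318 in KO and -0.320 in Het progenitors, with 1 of the 6 called lower in each. The 8 erythroid markers had medians of 0.03 in both, with 0 called. The part of granulocyte RNA in the genotype differences of the family was not tested.

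The additive fit averages the stages, and by stage the sign of the family's median differed. KO minus WT had a median over the 77 genes of 0.08 in Pre MegE (56 higher, 21 lower), 0.03 in Pre CFU-E (56 higher, 19 lower, the others equal) and -0.14 in CFU-E (12 higher, 65 lower). The median of all genes tested was within 0.01 of 0 in each stage, with 48.2%, 42.1% and 50.9% of them lower in KO. In the same order the complex I list had medians of 0.19, 0.04 and -0.18, and cytosolic ribosomal proteins had 0.08, -0.005 and -0.07. Het minus WT had medians of 0.05, -0.07 and 0.01 over the 77 genes. The rise from Pre MegE to CFU-E therefore had a median of 0.87 in WT, 0.78 in Het and 0.65 in KO. In the complex I list it was 0.88, 0.69 and 0.52, and in cytosolic ribosomal proteins 0.11, 0.02 and -0.04. The rise was smaller in KO than in both other genotypes for 66 of the 77 genes, as for 38.4% of all genes tested. In KO CFU-E 61 of 77 genes were lower than in WT and Het CFU-E, as were 40.2%. These values have no replicate check, since KO CFU-E is 1 array and the genes of an array are not replicates.

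**Figure D5:**
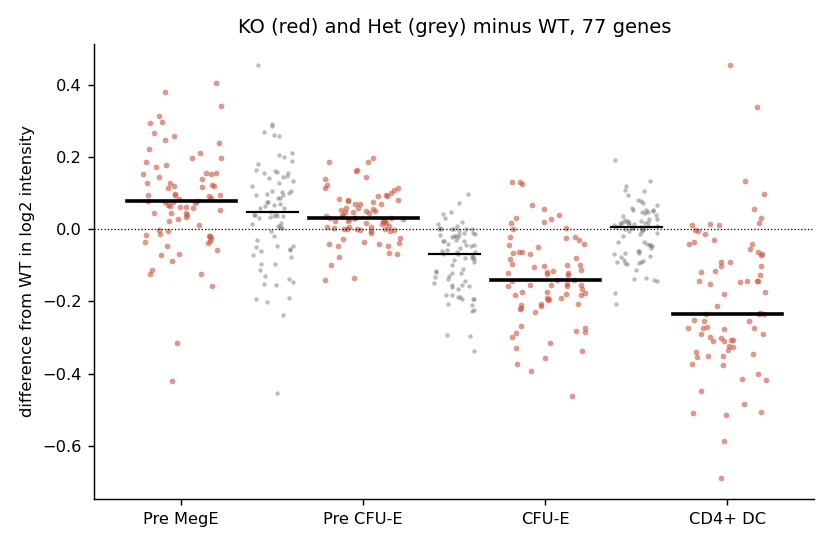
Differences from WT in log2 intensity within each cell type for the 77 genes, as red points (KO minus WT, left of each pair) and grey points (Het minus WT, right); black lines are medians, and each difference is between 2 arrays. The KO medians go from 0.08 in Pre MegE to -0.14 in CFU-E and -0.23 in DC; no Het DC array is part of the comparison.

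In DC the KO and WT arrays were compared with no test, since each is 1 array, over the 74 of the 77 genes whose value reached the array median in WT or KO. KO was below WT for 64 of the 74 genes, where 61.2% of the 10554 genes compared were lower, and the median difference was -0.23, against -0.05 for all. Differences were small. KO was at least 1.5-fold lower for 2 of the 74 genes, as for 1.77% of all genes compared, and at least 1.5-fold higher for 0, as for 0.758%. The 2 were Mrpl34, at 9.48 in WT and 8.89 in KO (1.502-fold lower), and Mrpl42, at 7.72 in WT and below the array median, at 7.03, in KO, so that its fold has no exact size. In all, 5 of the 74 genes reached the array median on 1 DC array only, 4 in WT (Mrpl42, Mrpl44, Mrps30 and Mrps36) and 1 in KO (Mrps12). Over the 72 genes whose mean of both DC arrays reached the mean of the array medians, a filter chosen after seeing the data, 62 were lower in KO, as were 61.8% of 10175 genes, and 1 was at least 1.5-fold lower, as were 1.54%. Mrps15 (-0.51), Mrpl49 (-0.51) and Mrpl23 (-0.51) followed. In the other direction Mrps6 was at 9.39 in WT and 9.85 in KO (0.46), Mrpl12, a stalk protein that binds translation factors, at 8.81 and 9.15 (0.34), and Mrps12, of the decoding centre, at 7.60, below the array median, and 7.74. Markers of other cells also differed between these 2 arrays. Of the 5 macrophage genes 4 were lower in KO, namely Mrc1 (9.71 in WT and 8.74 in KO), C1qb (10.998 and 10.22), C1qa (9.95 and 9.40) and Vcam1 (10.67 and 10.05), while Adgre1 was at 12.33 and 12.39. The 4 B cell genes had medians of 8.05 in WT and 8.41 in KO, with 2 above the array median on each array and Ms4a1 at 8.57 and 9.55. Their part in the KO differences of the family was not tested.

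A difference of the KO effect in DC from that in progenitors was tested by an interaction term over all 11 arrays, in which the lone DC arrays are assumed to vary like the progenitor arrays. Of the 77 genes 1 was called lower and 0 higher, against 3.01% of all genes tested called lower and 1.56% called higher. The count moved with the setting, to 11 lower and 1 higher without the KO CFU-E array, 2 lower without the Het Pre CFU-E array, 0 without the WT Pre CFU-E, WT CFU-E or KO Pre MegE array, 4 lower with centred arrays, 5 lower and 2 higher after quantile normalization, and 37 lower and 2 higher with array weights. The gene called was Mrpl34, whose progenitor arrays were at 11.38, 11.31 and 11.33 in WT, Het and KO Pre MegE, at 11.949, 11.936 and 12.002 in Pre CFU-E and at 12.08, 12.09 and 11.96 in CFU-E. KO lay nearer to WT in every progenitor stage than in DC. The interaction was -0.54 (SE 0.106, adjusted p = 0.025 by limma). Over the alternatives it lay between -0.59 and -0.50 with adjusted p from 0.000195 to 0.0847, and the call was lost without the WT Pre CFU-E, the WT CFU-E or the KO Pre MegE array.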

How the data were processed

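Per the submitters' processing notes, the authors used RMA to summarise the arrays, and the sources used here give no version of it. Each deposited value is an intensity of 1 probe set on 1 array, taken as linear from its range. Of 29674 probe sets, 21780 had 1 symbol in the platform annotation, 1618 several and 6276 were not listed. The gene numbers of all 77 members matched RefSeq. Here log2 was taken with no further scaling, and genes that reached the array median on at least 2 arrays were tested, among them all 77 members. Stage and genotype were additive terms over the 9 progenitor arrays (4 residual degrees of freedom), cell type and genotype over all 11 (5), with a KO by DC term for the interaction (4). The fits used limma 3.58.1 (R 4.3.3; two-sided moderated tests, Benjamini-Hochberg over all genes of a fit) and the first-step comparison of the progenitor fit was tested on simulated data. Simulated log2 differences of 0.25 were recovered in 50.7% of cases, those of 0.5 in 98.5% and those of 1 in 100%, with 6 false calls. Many differences of the size seen in the second step can therefore go uncalled. Residual SDs had a median of 0.0705 (log2), and 1 array per group limits the precision. No arrays were duplicates (highest correlation 0.9985).

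Named were the 8 largest called rises and 6 largest called falls of a stage comparison with 1 sign in all genotypes, those closest to 0, the 8 lowest and 6 highest in DC, the 3 largest genotype differences each way, the 5 largest each way in the DC pair, the 3 largest changes of each list, and some for their role. The genes whose promoters are shown, and list members that ran against their list, were picked with their values seen. The members and lists were chosen with earlier results of these data known. Alternatives were other scalings, filters, probe set rules, array weights, fits on fewer arrays and fits without 1 array.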

Additional observations from a re-analysis of the deposited data

Results flagged for a closer look

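Mrpl34 was the only 1 of the 77 members whose KO effect was called different between cell types by a test of the difference itself. By the same test 3.01% of all genes tested were called lower and 1.56% higher, so that 1 call does not set the family apart. KO minus WT was -0.59 in DC and smaller in size in each progenitor stage, and the interaction term was -0.54 (SE 0.106, adjusted p = 0.025 by limma over 11560 genes). The DC value rests on 1 KO and 1 WT array. The fitted values match these 2 arrays exactly, so the SE comes from the progenitor arrays alone and the test assumes that DC arrays vary like them. The call was lost without the WT Pre CFU-E, WT CFU-E or KO Pre MegE array.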

How the results depend on the processing

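Values are members called or log2 differences. The counts of the first step, the span, DC and both genotype comparisons stayed within 1.5 times under the alternatives run. For the second step (25 higher and 1 lower) the count was 50 with array weights, whose estimation stopped short of its tolerance, 39 without the KO arrays, and 10 to 42 without 1 array. First minus second step gave 39 to 66 without 1 array. The interaction gave 4 with centred arrays, 7 after quantile normalization, 39 with array weights and 0 to 12 without 1 array, and could not be fitted without either DC array.

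Some signs turned, and the cause was not tested. Most were values near 0, but they included calls. Against Pre MegE these were at -0.43 for Mrps34, -0.40 for Mrpl14, -0.40 for Mrps6 and -0.35 for Mrpl55 without further scaling. In DC against all stages they included the call of Mrps16 as lower. Under quantile normalization Mrpl24 was at -0.0461 in the first step and -0.0231 over the span, Mrpl58 at -0.0110 in the second step, Mrpl33 at 0.4183 and Mrps16 at 0.4123 in DC against all stages, and Mrpl33, Mrpl55, Mrps6, Mrpl14 and Mrps34 at 0.5341, 0.2694, 0.2594, 0.2551 and 0.0418 in DC against Pre MegE. With centred arrays Mrps10 was at 0.0340 in the second step, Mrpl33 and Mrpl24 at 0.0295 and 0.0208 in first minus second step (Mrpl24 at 0.0182 with array weights), and Mrpl33 at 0.1183 in DC against Pre MegE. Without 1 array, Mrpl24 ranged from -0.0210 to 0.0827 in the first step, and Mrpl58 from -0.0629 to 0.0841 and Mrps10 from -0.0458 to 0.0604 in the second. In first minus second step Mrpl33 ranged from -0.0686 to 0.0186 and Mrpl24 from -0.0934 to 0.0345. Mrpl33 ranged from -0.2297 to 0.1033 in DC against all stages and from -0.1791 to 0.1538 against Pre MegE, Mrps16 there from -0.0050 to 0.0971, Mrps17 from -0.0846 to 0.0002 in KO minus WT and Mrpl51 from -0.0692 to 0.0082 in Het minus WT. Of the other values for single members 1556 kept sign and side of the threshold, 25 lost a call and 12 gained one. No paired analysis was possible because the labels carry no replicate numbers beyond the genotype, which is the block of the fits. With 1 array per group, 4 or 5 residual degrees of freedom limit what the fits can call, and a missing call does not show that levels were equal.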
